A study of Caenorhabditis elegans with 4 samples.

Results

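Extracellular metalloproteases of the nematode Caenorhabditis elegans, together with genes named for defects in the moult, were compared between adult males and a mixed wild-type population. The set holds the genes on the array whose symbols begin with nas-, zmp-, adt-, nep- or mlt-, and the genes dpy-31, toh-1, hch-1, sup-17, gon-1, mig-17 and cri-2. It comprises 80 genes, each with 1 probe, of 15168 named genes with a probe. Values were present for 79 of them on at least 3 arrays. For mig-17, an ADAMTS protease that guides the migrating gonad, the probe had no value on any array. The name of the set is broader than its contents in 2 ways. The mlt genes are grouped by a moulting defect and not by a protease fold, and cri-2 encodes a homologue of the tissue inhibitors of metalloproteases (TIMPs).

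These enzymes cut proteins outside the cell or at its surface with a zinc ion held in the active site. Astacins, named after a crayfish digestive enzyme, process collagens, hatching membranes and the old cuticle, and matrix metalloproteases and ADAMTS proteases remodel basement membranes. ADAM proteases shed membrane proteins such as the Notch receptor, and neprilysins degrade small peptides, among them neuropeptides. In worms the cuticle is rebuilt at each larval moult, a process that adults no longer undergo.

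On each of 4 arrays of 2 colours, a separate preparation of mRNA from him-5 adult males (channel 2) was read against mRNA from wild-type worms of mixed stages, the reference (channel 1). Mutation of him-5 makes the X chromosome segregate wrongly in meiosis, and many offspring are then male. The labels word the reference as mixed stage on preparation 1 and as mixed on the others, give no strain beyond him-5 and wild type, and do not state if each preparation was a culture of its own, so that the p-values reflect the spread among 4 preparations alone, and it may be technical. The males differ from the reference in sex, stage and the him-5 mutation at once, and the shares of these in a ratio cannot be told apart. All values are log2 ratios, males over reference: titles, descriptions and channel order make that direction likely, but no dye is named. Per array, 19424 to 19761 of 20000 probes had a value, and the number of arrays limits the precision. Of 15 sperm markers, 15 were higher in males, with array medians from 4.10 to 4.34, and of 15 oocyte and early embryo markers 13 were lower and 1 was higher. Markers of the male tail and male neurons were higher for 8 of 13 genes and lower for 1. Among markers of other tissues, 5 of 12 for intestine, 1 of 10 for pharynx, 3 of 12 for epidermis and 3 of 7 for muscle were higher, and 1, 5 and 5 of the first 3 of these lists were lower. In RNA from whole worms, fewer cells of a type and less RNA per cell cannot be told apart.

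In males, 13 of 25 neprilysins (52%) and 7 of 36 astacins (19.4%) were more abundant than in the reference, beside 22.1% of all features. The largest excess was 19.3-fold. Lower transcripts included the cuticle-shedding astacin nas-37, the collagen-processing astacin dpy-31 and the Notch-cutting ADAM gene sup-17. A gene was called when its mean ratio differed from 0 at an adjusted p under 0.05 by limma with Benjamini-Hochberg adjustment over 19214 features. Of all features, 45.7% were called, 22.1% as higher and 23.6% as lower in males. Of the 79 measured members, 36 were called (45.6%), 22 higher (27.8%) and 14 lower (17.7%), and 43 were not called, which does not show that those match the reference. The share of members called was thus close to that of all features. The members' median log2 ratio was 0.09, beside 0.05 for all features, and single means ran from -1.96 to 4.27. At least 2-fold differences were called for 20 of the 79 members as higher and 10 as lower. Among all 19214 features, 2534 were called at least 2-fold higher and 2328 at least 2-fold lower. All 22 higher members had the same sign on each array that measured them, and so did 13 of the 14 lower members, the exception being mlt-9.

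**Figure D1:**
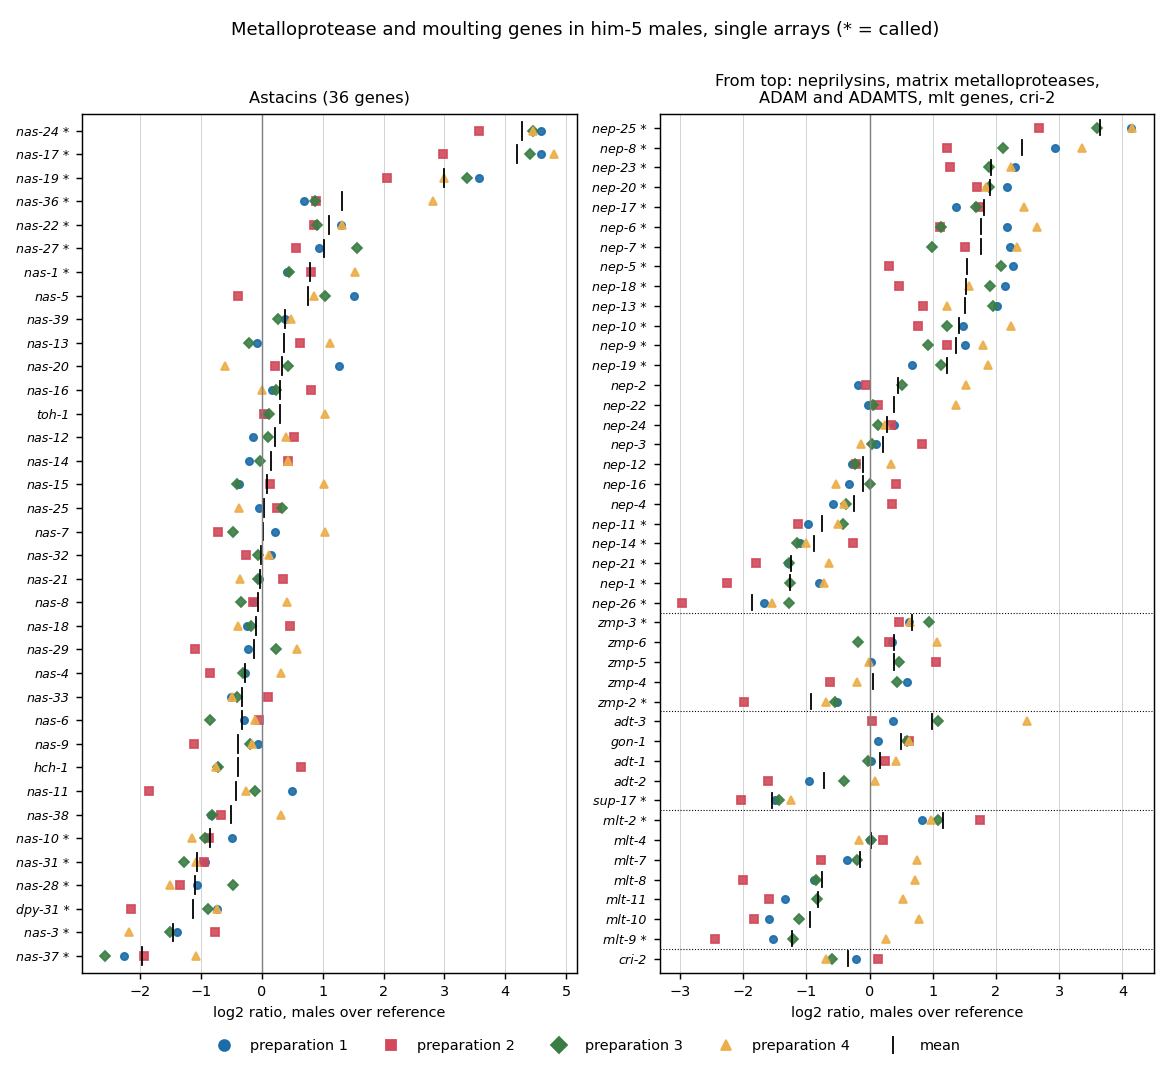
Log2 ratio of each of the 79 measured genes on each array (x axis, males over reference), with 1 marker per preparation and a vertical tick for the mean; an asterisk marks genes called at an adjusted p under 0.05. The 4 genes nas-24, nas-17, nas-19 and nep-25, stand apart at a mean of 3.00 or more, and most other genes lie between -2 and 2.

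Astacins went both ways. Of 36, 7 were higher in males (19.4%), 6 were lower (16.7%) and 23 were not called, beside 22.1% and 23.6% of all features. The class median was 0.00. At least 2-fold differences were called for 6 of the 36 as higher and 5 as lower, beside 2534 and 2328 of all 19214 features. The gene nas-24 (F20G2.4, chromosome V) stood at 4.59, 3.57, 4.46 and 4.46 on preparations 1 to 4. Its mean was 4.27 ± 0.47 (SD, n = 4), a 19.3-fold excess in males (adjusted p = 3.0e-05, limma). The gene nas-17 (K03B8.2, chromosome V) gave 4.58, 2.98, 4.41 and 4.81, a mean of 4.19 ± 0.83 (SD, n = 4) or 18.3-fold (adjusted p = 8.99e-05, limma). Its neighbour nas-19 (K03B8.5) gave 3.57, 2.06, 3.38 and 3.00, with a mean of 3.00 ± 0.67 (SD, n = 4) or 8.01-fold (adjusted p = 0.000187, limma). For each of these 3 genes preparation 2 was the lowest, and every array lay more than 2 above 0. No role is given here for nas-24, nas-17 or nas-19.

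Smaller ratios among the higher astacins were those of nas-22 at 1.10 ± 0.24 (SD, n = 4), nas-27 at 1.02 ± 0.51 (SD, n = 3) and nas-1 at 0.80 ± 0.52 (SD, n = 4). The call of nas-27 was lost without preparation 1 or 3, and that of nas-1 without preparation 2, 3 or 4.

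Astacins of the moult did not share a direction. The gene nas-36 (C26C6.3, chromosome I), needed to shed the old cuticle, stood at 0.70, 0.89, 0.87 and 2.81, a mean of 1.32 ± 1.00 (SD, n = 4, adjusted p = 0.0200, limma). The arrays of preparations 1 to 3 lay close together below 1, and preparation 4 lay far above them. Without preparation 4 the mean was 0.82 and still called (adjusted p = 0.0169), and without preparation 2 it was 1.46 and not called (adjusted p = 0.0503, limma). Its partner in cuticle shedding, nas-37 (C17G1.6, chromosome X), was the lowest astacin, at -2.26, -1.93, -2.58 and -1.08. All 4 arrays were below 0, with a mean of -1.96 ± 0.65 (SD, n = 4, adjusted p = 0.00101, limma), 3.90-fold below the reference. The gene nas-38, which acts in the moult and in sleep, was at -0.83, -0.66, -0.81 and 0.31. It lay below 0 on 3 arrays and above on preparation 4, and its mean of -0.50 was not called (adjusted p = 0.117, limma). Without preparation 4 it was called at -0.77 (adjusted p = 0.0208, limma).

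Among astacins of collagen processing, dpy-31 (R151.5, chromosome III), the procollagen C-proteinase that matures the cuticle collagen SQT-3, was lower in males. Its values were -0.73, -2.15, -0.88 and -0.73, a mean of -1.12 ± 0.69 (SD, n = 4, adjusted p = 0.0129, limma) or 2.18-fold. Preparation 2 was the lowest by far, and without it the mean was -0.78 and still called (adjusted p = 0.0114, limma). Values for sqt-3 itself were -1.12, -1.16, -1.07 and 0.96, so that it too was below 0 on all arrays except preparation 4. Its mean of -0.60 was not called (adjusted p = 0.212, limma). Another collagen that DPY-31 is known to be genetically tied to, dpy-17, was lower at -1.41 ± 0.39 (SD, n = 4, adjusted p = 0.00136, limma).

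The other lower astacins have no role described here. The gene nas-3 (K06A4.1, chromosome V) gave -1.39, -0.77, -1.51 and -2.18, a mean of -1.46 ± 0.58 (SD, n = 4, adjusted p = 0.00267, limma). Also called lower, on 4 arrays of 1 sign, were nas-28 at -1.09 ± 0.46 (SD, n = 4), nas-31 at -1.06 ± 0.16 (SD, n = 4) and nas-10 at -0.86 ± 0.27 (SD, n = 4). The narrow spread of nas-31 came from arrays between -1.28 and -0.94.

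Astacins known from hatching, the pharynx and tolloid-like signalling were not called. The hatching enzyme hch-1 was at -0.73, 0.65, -0.71 and -0.75, so that preparation 2 alone was above 0. Without preparation 2 it was called, at -0.73 (adjusted p = 0.0129, limma). The genes nas-6 and nas-7, which shape the grinder of the pharynx, had means of -0.33 (95% interval -0.78 to 0.13) and 0.02 (-0.67 to 0.71). The tolloid-like genes toh-1 and nas-39 stood at 0.31 (-0.21 to 0.82) and 0.37 (-0.10 to 0.85, n = 3). For toh-1 the arrays were 0.05, 0.03, 0.11 and 1.04, with preparation 4 far above the rest. Of the other astacins that were not called, means above 0 were found for nas-13 (0.37), nas-20 (0.33), nas-16 (0.31), nas-12 (0.23), nas-14 (0.15), nas-15 (0.09) and nas-25 (0.04). Means below 0 were found for nas-32 (-0.01), nas-21 (-0.03), nas-8 (-0.05), nas-18 (-0.09), nas-29 (-0.12), nas-4 (-0.28), nas-33 (-0.32), nas-9 (-0.38) and nas-11 (-0.43). The highest of those not called, nas-5, was at 1.51, -0.39, 1.04 and 0.87 (adjusted p = 0.0758, limma), and without preparation 2 it was called at 1.14 (adjusted p = 0.00795, limma).

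Neprilysins had a larger share of genes higher in males than the other classes of the set, a description without a test between classes. Of 25 measured, 13 were higher (52%), 5 were lower (20%) and 7 were not called, beside 22.1% and 23.6% of all features. The class median was 1.22, and it was 0.45 over the 23 genes with values on all 4 arrays. Array medians were 0.67, 0.44, 0.92 and 1.45 on preparations 1 to 4, so that the class lay above 0 on every array. The members that rose were at means from 1.22 to 3.64.

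The gene nep-25 (ZK1248.1, chromosome II) was the highest neprilysin, with 4.13, 2.69, 3.60 and 4.15. Its mean was 3.64 ± 0.69 (SD, n = 4), 12.5-fold above the reference (adjusted p = 9.29e-05, limma). Next came nep-8 (F18A12.4, chromosome II), with 2.94, 1.22, 2.11 and 3.36 and a mean of 2.41 ± 0.94 (SD, n = 4, adjusted p = 0.00134, limma). The gene nep-23 (Y116A8C.4, chromosome IV) gave 2.31, 1.28, 1.89 and 2.23, a mean of 1.93 ± 0.47 (SD, n = 4, adjusted p = 0.000518, limma). All 3 were lowest on preparation 2. By its narrow spread nep-20 stood out, with 2.17, 1.69, 1.89 and 1.84 and a mean of 1.90 ± 0.20 (SD, n = 4, adjusted p = 0.000192, limma).

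Of the other higher neprilysins, nep-17 was at 1.81, nep-6 and nep-7 at 1.76, nep-5 at 1.55, nep-18 at 1.52, nep-13 at 1.51, nep-10 at 1.42, nep-9 at 1.36 and nep-19 at 1.22 (means, n = 4 except n = 3 for nep-5 and nep-19). For nep-5 the measured arrays were 2.27, 0.30 and 2.07, and its call was lost without preparation 1 or 3. The call of nep-19 was lost without preparation 3. RefSeq lists nep-7 and nep-19 as pseudogenes, and nep-14, below, as well.

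Neprilysins lower in males were led by nep-26 (ZK970.1, chromosome II), at -1.67, -2.97, -1.28 and -1.55. All arrays were below -1, with a mean of -1.87 ± 0.75 (SD, n = 4, adjusted p = 0.00193, limma). The gene nep-1 (ZK20.6, chromosome II), which acts in the pharynx and in head neurons, gave -0.80, -2.25, -1.25 and -0.73. Its mean was -1.26 ± 0.70 (SD, n = 4, adjusted p = 0.00854, limma), and preparation 2 was the lowest. The gene nep-21 (T16A9.4, chromosome V) gave -1.30, -1.79, -1.27 and -0.64, a mean of -1.25 ± 0.47 (SD, n = 4, adjusted p = 0.00334, limma). Also lower were nep-14 at -0.88 and nep-11 at -0.76. Leaving out preparation 1 ended both calls, and leaving out preparation 3 ended that of nep-14.

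The gene nep-2, which degrades a neuropeptide in olfactory adaptation, was not called. Its values were -0.18, -0.05, 0.51 and 1.53, a mean of 0.45 (95% interval -0.23 to 1.14, n = 4). The other neprilysins that were not called were nep-22 at 0.38, nep-24 at 0.27, nep-3 at 0.21, nep-12 at -0.10, nep-16 at -0.11 and nep-4 at -0.25.

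**Figure D2:**
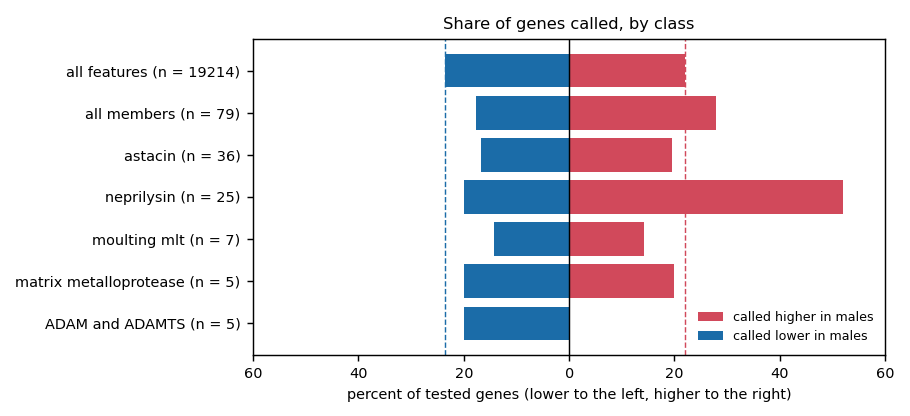
Percent of measured genes called higher (bars to the right) or lower (bars to the left) in males. Bars stand for all features, all 79 members and each class except the single TIMP homologue cri-2. Dashed lines mark the shares of all features (22.1% and 23.6%). Neprilysins reach 52% higher, against 19.4% of astacins.

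Many of the male-enriched genes sit side by side. A run of 8 neprilysins on chromosome II, with at most 2 genes between members, held in order nep-19, nep-20, nep-9, nep-10, nep-8, nep-7, nep-6 and nep-11. The first 7 were higher in males, at means from 1.22 to 2.41, and the last was lower at -0.76 on 4 arrays of 1 sign. In total 12 of the 13 higher neprilysins lie on chromosome II, and so do 3 of the 5 lower ones and 18 of the 25 measured. Of 2666 named genes tested on that chromosome, 27.1% were called higher and 21.2% lower. Other runs were mixed. On chromosome IV nep-23 was higher and its neighbour nep-24 was not called at 0.27 (arrays from 0.13 to 0.39). On chromosome V nas-17 and nas-19 were higher at 4.19 and 3.00, and nas-16 and nas-18 beside them were not called at 0.31 and -0.09. In a second run on chromosome V nas-22 was higher at 1.10, and nas-20 and nas-21 were not called at 0.33 and -0.03. Genes in such a run are related in sequence, and whether a probe also read its neighbour's transcript was not tested.

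**Figure D3:**
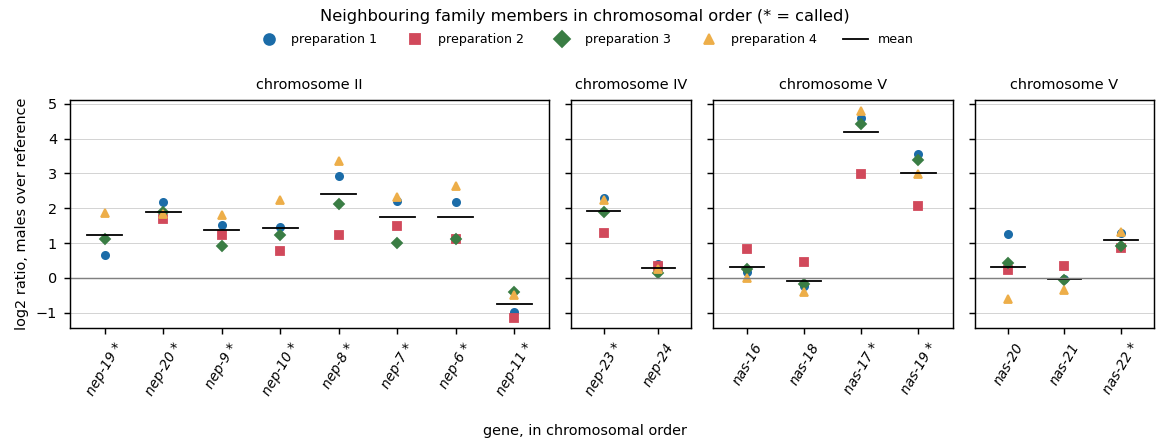
Log2 ratio on each array (y axis, males over reference) for the 4 runs of neighbouring members, in chromosomal order, with 1 marker per preparation, a horizontal bar for the mean and an asterisk for a called gene. On chromosome II, 7 neighbouring neprilysins lie above 0 on every array that measured them, and nep-11 lies below 0 on all 4; on chromosome V, nas-17 and nas-19 lie far above nas-16 and nas-18.

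Adjoining genes outside the set did not all go with the members. Of 23 tested non-member genes next to a higher member, 7 were higher (30.4%) and 4 lower (17.4%). Beside lower members, 5 of 23 were higher (21.7%) and 5 lower (21.7%). Beside members that were not called, 10 of 65 were higher (15.4%) and 22 lower (33.8%). The shares over all features were 22.1% and 23.6%, and no test between these groups was run. Non-member neighbours with a mean above 3, picked by their values, lay beside members of every kind. They were ZK1248.17 (4.12) and scl-15 (3.92) beside the higher nep-25 and nep-13, T16A9.5 (4.26) and K09C8.2 (3.27) beside the lower nep-21 and nas-10, and cwp-1 (3.48) beside nas-9, which was not called.

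Members on the X chromosome were not among those called higher. Of 17 on the X, limma called 0 higher and 4 lower (nas-37, nas-10, mlt-9 and nep-14). At an unadjusted p under 0.05, 1 was higher and 5 were lower, but the share of all features at that threshold is not given here. Of 62 on the autosomes, 22 were higher and 10 lower. Among all named genes with a known chromosome, 13.9% of 2261 on the X and 23% of 12739 on the autosomes were called higher, and 30.5% and 25.6% were called lower. Whether members on the X differ from other X-linked genes was not tested.

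Of 5 zmp genes, the matrix metalloproteases, 1 was higher (20%), 1 was lower (20%) and 3 were not called, beside 22.1% and 23.6% of all features. The gene zmp-3 (C31B8.8, chromosome V), active in the anchor cell that breaches the basement membrane under the vulva, gave 0.62, 0.46, 0.94 and 0.65. Its mean of 0.67 ± 0.20 (SD, n = 4, adjusted p = 0.0160, limma) lost its call without preparation 1 or 3. The gene zmp-2 (H19M22.3, chromosome III) gave -0.51, -1.99, -0.55 and -0.69, with a mean of -0.93 ± 0.71 (SD, n = 4, adjusted p = 0.0274, limma). Preparation 2 was the lowest by far, and without it the mean was -0.58 and still called (adjusted p = 0.0274, limma). Means of zmp-4, zmp-5 and zmp-6 were 0.05, 0.38 and 0.39. The single TIMP homologue of the set, cri-2, was not called, at -0.22, 0.13, -0.60 and -0.69 with a mean of -0.34 (95% interval -0.80 to 0.12, n = 4). A second TIMP homologue outside the set, timp-1, chosen after its values were seen, was at -0.18, -1.01, -0.02 and -1.34, with a mean of -0.63 (adjusted p = 0.0786, limma).

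Of the 5 measured ADAM and ADAMTS genes, 1 was lower and 0 were called higher by limma, beside 23.6% and 22.1% of all features. At an unadjusted p under 0.05, 2 were higher and 2 lower, but the share of all features at that threshold is not given here. The gene sup-17 (DY3.7, chromosome I), the ADAM10 homologue that makes the extracellular cut in Notch receptors, stood at -1.50, -2.03, -1.44 and -1.24. All arrays were below -1, with a mean of -1.55 ± 0.34 (SD, n = 4, adjusted p = 0.000740, limma), 2.93-fold below the reference. The gene gon-1, an ADAMTS that lets the gonad elongate, gave 0.13, 0.62, 0.59 and 0.63 and was not called at 0.49 (adjusted p = 0.0528, limma). The gene adt-1, which acts in the rays of the male tail, was at 0.02, 0.25, -0.02 and 0.41, a mean of 0.17 (95% interval -0.23 to 0.56, n = 4). The gene adt-2, which affects cuticle collagens and body size, was at -0.97, -1.61, -0.41 and 0.08. It lay below 0 on 3 arrays, and its mean of -0.73 was not called (adjusted p = 0.0678, limma), though it was at -1.0 without preparation 4 (adjusted p = 0.0250, limma). The gene adt-3 ranged widely, at 0.36, 0.03, 1.09 and 2.48, and its mean of 0.99 was not called (adjusted p = 0.0674, limma).

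Most genes named for moulting defects differed in sign between preparation 4 and the other preparations. Of 7 mlt genes, 1 was higher (14.3%), 1 was lower (14.3%) and 5 were not called, beside 22.1% and 23.6% of all features. The class median was -0.75. The gene mlt-2, an ankyrin-repeat protein that works with NEKL kinases in the epidermis, was higher on all arrays, at 0.82, 1.74, 1.09 and 0.97 (mean 1.16 ± 0.41, SD, n = 4, adjusted p = 0.00351, limma). Another such protein, mlt-4, stayed near 0 at 0.01, 0.21, 0.02 and -0.17. The gene mlt-9 was called lower, at -1.52, -2.45, -1.21 and 0.26, a mean of -1.23 ± 1.12 (SD, n = 4, adjusted p = 0.0361, limma). It was not called without preparation 1 (-1.13), 2 (-0.82) or 3 (-1.24), while without preparation 4 it was at -1.73 and called (adjusted p = 0.00370, limma).

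The other mlt genes had the same shape across preparations and were not called. Values for mlt-10, a nematode-specific protein of the moult, were -1.59, -1.83, -1.12 and 0.79. The Kunitz-type protease inhibitor gene mlt-11 gave -1.34, -1.60, -0.83 and 0.53. The gene mlt-8 gave -0.88, -2.0, -0.84 and 0.72, and mlt-7, a haem peroxidase that crosslinks cuticle, gave -0.36, -0.77, -0.20 and 0.75. Each lay below 0 on preparations 1 to 3 and above 0 on preparation 4. Without preparation 4, mlt-8 at -1.24, mlt-10 at -1.51 and mlt-11 at -1.26 were called lower (adjusted p = 0.0133, 0.00272 and 0.00586, limma), and mlt-7 was not, at -0.44.

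Preparation 4 also stood apart for other genes of the cuticle, and not for these alone. The difference between preparation 4 and the mean of the other 3 had a median of 1.79 over the mlt genes, 0.33 over the 75 members with 4 values and 0.03 over all features. It was 1.69 over the body-shape collagens (15 of 16 above 0), 1.40 over the epidermis markers (10 of 11 above 0, 5 of the collagens being also in the marker list), 1.11 over the moulting regulators (20 of 22) and 1.30 over the muscle markers (6 of 7). It was 0.73 over the basement membrane list described below (18 of 20), 0.58 over the neprilysins (16 of 23) and 0.40 over the markers of male tail and male neurons (11 of 13). For sperm and oocyte markers it was -0.19 and -0.44. Epidermis markers had array medians of -0.77, -0.80, -0.90 and 0.85, and muscle markers of 0.25, 0.55, 1.25 and 1.98. Their part in the values of the mlt genes, nas-36 and nas-38 was not tested. Preparation 4 was the highest array for 37 of the 75 members, and preparation 2 was the lowest for 36.

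**Figure D4:**
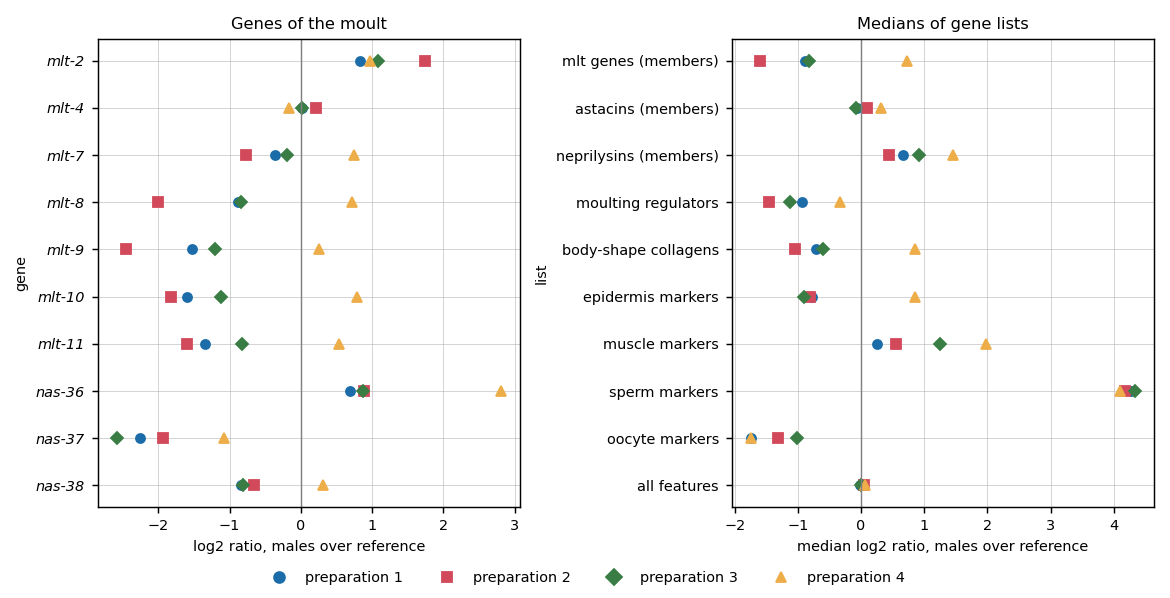
Log2 ratio of the mlt genes and of nas-36, nas-37 and nas-38 (left) and median log2 ratio of gene lists (right), males over reference on the x axes, with 1 marker per preparation. Preparation 4 lies above the other 3 for mlt-7 to mlt-11 and all 3 nas genes, as it does for the medians of collagens and epidermis markers, and the sperm medians of the 4 arrays lie together near 4.

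Genes that work with these proteases were read beside them. For comparison with each list below, 22.1% of all features were called higher and 23.6% lower. Of the 22 measured moulting regulators and components of the apical matrix, 13 were lower (59.1%), 2 were higher (9.1%) and 7 were not called. The list median was -1.13. The lowest were sym-1, a leucine-rich-repeat protein of the embryonic epidermis, at -2.14 ± 1.05 (SD, n = 4), the patched-related gene ptr-4 at -2.01 ± 0.72 (SD, n = 4) and the leucine-rich-repeat gene pan-1 at -1.99 ± 0.52 (SD, n = 4). Each of these 3 was below 0 on all arrays. Body-shape collagens went both ways, with 4 of 17 higher (23.5%) and 5 lower (29.4%). The collagen bli-2 was at 2.08, 1.03, 2.25 and 4.96, dpy-4 at 1.36, 1.09, 1.28 and 2.84, and rol-8 at -2.27, -2.44, -2.53 and -0.62.

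The 3 ADAM genes outside the set were all below 0. The gene unc-71, which acts in axon guidance, was lower at -1.14 ± 0.31 (SD, n = 4), and the ADAM17 homologue adm-4 was lower at -0.75 ± 0.21 (SD, n = 4), its call lost without preparation 1 or 3. For adm-2 the mean was -0.52 and was not called. Of 11 Notch pathway genes 4 were lower (36.4%) and 2 higher (18.2%). For the receptor gene glp-1 the males lay lower, with -0.85 ± 0.06 (SD, n = 4), and the Notch receptor lin-12 was not called at -0.32. The gamma-secretase subunits aph-2 and aph-1, which act in the cut that follows, were lower at -1.47 ± 0.31 and -1.25 ± 0.31 (SD, n = 4). The presenilin sel-12 was lower at -0.63 ± 0.28 (SD, n = 4, adjusted p = 0.0251, limma), below 0 on all arrays. Another presenilin, hop-1, was higher at 0.62, 1.10, 3.84 and 0.56, a mean of 1.53 ± 1.56 (SD, n = 4, adjusted p = 0.0455, limma). Preparation 3 alone was far above the rest, and the call was lost without preparation 2 or 3 (0.76 without preparation 3). It was also lost with median centring (adjusted p = 0.0501), ribosomal centring (adjusted p = 0.174) and robust moderation of the variance (adjusted p = 0.0533, limma), at means from 1.13 to 1.53.

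Of 20 genes of basement membranes and of receptors such as unc-40, 3 were higher (15%), 6 lower (30%) and 11 not called. The list median was -0.03. The perlecan gene unc-52 was at 1.11, -0.08, 2.26 and 2.91 and the type IV collagen gene emb-9 at 0.52, 0.07, 2.35 and 3.09. Both were higher (adjusted p = 0.0259 and 0.0381, limma), and both lost their call without preparation 3 or 4, the arrays on which the muscle markers had the higher medians; the part of muscle RNA in these values was not tested. The fibulin gene fbl-1, which acts with gon-1 and mig-17 in gonad shape, was lower at -0.86 ± 0.47 (SD, n = 4), and the netrin receptor unc-40 at -1.42 ± 0.49 (SD, n = 4). Of 7 further proteases and their relatives in secretion and moulting, 1 was higher (14.3%) and 2 lower (28.6%). The furin-like convertase kpc-1 was at -1.25, -2.95, -0.88 and -0.94, and acn-1, which resembles angiotensin-converting enzyme, was at -1.75, -2.09, -1.58 and 0.06. Without preparation 1, 2 or 3 the call of acn-1 was lost. The cathepsin L gene cpl-1 was higher at 0.59 ± 0.27 (SD, n = 4), but not without preparation 1, 3 or 4.

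The scaling of the arrays limits the size of all these values. With median centring or quantile normalization, all 22 higher and 14 lower members kept their call. The ribosomal protein genes had medians of 0.13, 1.10, 0.04 and 0.33 on preparations 1 to 4. With each array centred on these medians, the median of all features moved from 0.05 to -0.35. Higher calls among the members fell from 22 to 11, and lower calls numbered 14 as before. Among all 19214 features, higher calls fell from 4242 to 1624, while lower calls numbered 4535 before and 4536 after. Of all features called, 26.4% were then higher in males, against 48.3% with the values as deposited. The 11 genes that lost their call were mlt-2, nas-1, nas-22, nas-27, nas-36, nep-5, nep-10, nep-13, nep-18, nep-19 and zmp-3. Of the genes named outside the set, unc-52 (1.15), emb-9 (1.11), cpl-1 (0.19) and hop-1 (1.13) lost theirs as well. The strongest ratios persisted, with nas-24 at 3.87, nas-17 at 3.79, nep-25 at 3.24 and nas-19 at 2.60, all still called.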

How the data were processed

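The deposited values are log2 ratios, 1 per probe and array, already scaled by the authors; the scaling, image analysis, background correction and dyes are not given in the sources used here. The logarithm's base was taken from the values: on each array, 100% of those below a ratio of 3, raised as powers of 2, were multiples of 0.001. Values were used as deposited. Symbols came from the platform annotation (15655 probes with 1 gene, 198 with several, 4147 with none), updated through RefSeq, assembly WBcel235, which also gave chromosomes and neighbours. Probes of a gene were averaged.

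Features with values on at least 3 arrays were fitted in limma 3.58.1 (R 4.3.3) with an intercept by lmFit and eBayes, two-sided, with Benjamini-Hochberg adjustment. The 4 members with 3 values were fitted on those. The fit was tested on simulated data, and it did not call all of the genes changed there. An exact sign-flip test could not go below 0.125 with 4 arrays. Alternatives concerned scaling, missing values, weights, moderation, probes, threshold, the month in the sample titles, and leaving out each preparation. The members and lists were chosen with earlier results of these data known. All members may be named; those given on all arrays are the 3 most changed called members of 1 sign per class and direction and genes of known role, and from each list up to 3 called genes with the largest change. Others were added after their values were seen. The symbols tim-1, mlt-3, nas-2, nas-23, nas-30, nas-40, nep-15 and zmp-1 had no matching probe and are not analysed here. Sequences are not used here. Python 3.11.15 and matplotlib 3.10.9 drew the figures.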

Additional observations from a re-analysis of the deposited data

Results flagged for a closer look

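Of 75 members with values on 4 arrays, 12 had 1 array far from the other 3 (the gap over the whole range was above Dixon's 95% critical value). Chance flags about 1 in 20 groups. The distant array was preparation 2 for 6 genes, preparation 4 for 5, preparation 1 for 1 and preparation 3 for 0.

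On preparation 2, nas-24 was the lowest array at 3.57, nas-9 at -1.11, dpy-31 at -2.15 and zmp-2 at -1.99, while hch-1 was the highest at 0.65 and nep-14 at -0.25. On preparation 4, nas-36 was the highest at 2.81, toh-1 at 1.04, nas-38 at 0.31, nep-22 at 1.37 and nep-12 at 0.34. On preparation 1, gon-1 was the lowest at 0.13. The median of the ADAM and ADAMTS class was apart on preparation 4, at 0.41.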

How the results depend on the processing

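No paired analysis was possible because the arrays hold 1 group. Higher calls among the members numbered 22, 11 with ribosomal centring, 16 at an adjusted p under 0.01 and 17 to 21 without 1 preparation. With array weights all 22 kept their call, and others such as gon-1 joined them. Lower calls numbered 14, 24 with array weights, 9 at an adjusted p under 0.01 and 11 to 19 without 1 preparation. The median was 0.09, -0.31 with ribosomal centring and 0.07 to 0.22 without 1 preparation. No called member changed sign under any of 15 alternatives; 11 higher and 9 lower members kept their call under all of them, and 11 and 5 lost it under at least 1. Of uncalled members, 14 were called under at least 1, and all 14 were called with array weights. These gave preparation 3 a weight of 4.73 and the other preparations 0.31 to 1.08. Among all 19214 features, 6074 were then called higher and 6146 lower, against 4242 and 4535 without weights.

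Signs turned only for uncalled members. With ribosomal centring these were mlt-4 (-0.38), nas-7 (-0.38), nas-25 (-0.36), zmp-4 (-0.35), nas-15 (-0.31), nas-14 (-0.25), adt-1 (-0.24), nep-3 (-0.19), nas-12 (-0.18), nep-24 (-0.13), toh-1 (-0.093), nas-16 (-0.093), nas-20 (-0.076), nas-13 (-0.034), zmp-5 (-0.020), nep-22 (-0.017) and zmp-6 (-0.012). Median centring gave nas-7 -0.010 and mlt-4 -0.011, and quantile normalization nas-32 0.027. Array weights gave nas-13 -0.020, nas-15 -0.25, nas-7 -0.23 and nas-29 0.14. Without 1 preparation the ranges were nas-15 -0.22 to 0.26, nas-25 -0.059 to 0.17, nas-7 -0.32 to 0.26, nas-32 -0.065 to 0.069, nas-21 -0.15 to 0.083, nas-8 -0.21 to 0.044, nas-18 -0.27 to 0.014, nas-29 -0.36 to 0.20, nas-11 -0.74 to 0.048, zmp-4 -0.13 to 0.27, mlt-4 -0.048 to 0.081, mlt-7 -0.44 to 0.064 and nep-16 -0.28 to 0.033. The cause was not tested. Spot intensities were not used here, so signal over background behind a ratio is unknown.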
